A study of Mus musculus with 14 samples.

Results

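The genes of the T cell receptor signalling complex and its coreceptors were followed in bulk RNA-seq of CT26 tumors treated with an antibody to PD-1. They are the 4 CD3 chains (Cd3d, Cd3e, Cd3g, and Cd247), the coreceptors Cd4, Cd8a, and Cd8b1, and the surface receptors Cd2, Cd5, and Cd6. The 10 genes were chosen by name, as genes that T cells carry, and each matched 1 of the 53801 Ensembl genes in every tumor. The study asked how the same cancer cells, transplanted into genetically alike hosts, come to respond differently to immune checkpoint blockade. CT26 is a mouse colon carcinoma line, and the line used was a pool of cells carrying ClonTracer DNA barcodes under puromycin selection, so all groups share that vector. Per injection site, 250000 cells were placed under the skin of each flank of female wild-type Balb/c mice aged 6 to 8 weeks. From day 7 the mice received either control IgG (clone 2A3) or anti-PD-1 (clone 1A12), 200 μg every 3 days for 5 doses, and tumors were taken 3 days after the last dose. The control IgG group held 5 tumors from 4 mice (14L, 14R, 16R, 17R, and 20R). The anti-PD-1 responders were 5 tumors from 4 mice (24L, 26R, 30L, 30R, and 35L), and the anti-PD-1 non-responders 4 tumors from 3 mice (29L, 32R, 33L, and 33R). L and R mark the left and right flank, and a shared number was read as a shared mouse. Response was assigned by the study from the tumor's size at the end of treatment relative to control IgG tumors, so response and size cannot be told apart here.

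As background, a T cell recognizes antigen through a receptor whose variable chains have no signalling domain of their own. The CD3 chains and the zeta chain, encoded by Cd247, pair with that receptor, bring it to the surface, and carry the tyrosine motifs that kinases phosphorylate when it is engaged. CD4 and CD8 bind the major histocompatibility complex (MHC) that presents the antigen, class II and class I respectively, and bring the kinase LCK to the receptor. CD2 adds adhesion and costimulation, while CD5 and CD6 are scavenger-type receptors best known for tuning the strength of the signal. PD-1, the target of the antibody, is an inhibitory receptor that acts on this same signal.

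Several of these genes are close neighbours. In the mm10 build, Cd3g (chromosome 9, 44969572 to 44980431, minus strand) and Cd3d (44981786 to 44987339, plus strand) start 1355 bases apart in opposite directions, and Cd3e (44998740 to 45009627, minus strand) lies 11401 bases beyond Cd3d. Cd8b1 (chromosome 6, 71322788 to 71337494) and Cd8a (71373427 to 71379173) are both on the plus strand and 35933 bases apart, and Cd4 (124864692 to 124888221, minus strand) is on the same chromosome. Cd5 (chromosome 19, 10717116 to 10739002) and Cd6 (10789341 to 10830058), both on the minus strand, are 50339 bases apart. Cd247 (chromosome 1, 165788681 to 165877277, plus strand) and Cd2 (chromosome 3, 101275899 to 101287939, minus strand) stand alone.

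Sequence upstream of the start site was found for 6 of the 10 genes in RefSeq's table (build GRCm38.p6), namely Cd3d, Cd3e, Cd3g, Cd247, Cd8a, and Cd5. The 250 bases before the start are shown for the 3 linked CD3 genes and for Cd8a, since these genes are neighbours or partners and were all measured higher in responders than in control IgG tumors. Letters of 6 short motifs were searched on both strands: TGTGGT for RUNX factors, GGAAGT for ETS factors, AGATAA for GATA factors, CAGNTG for E-box proteins, CTTTGA for TCF factors, and TATAAA for the TATA box. Each sequence reads 5′ to 3′ on its gene's strand, and capitals mark a match. The regions are chr9:44981536-44981785 (plus) for Cd3d, chr9:45009612-45009861 (minus) for Cd3e, chr9:44980432-44980681 (minus) for Cd3g, and chr6:71373177-71373426 (plus) for Cd8a.
Cd3d: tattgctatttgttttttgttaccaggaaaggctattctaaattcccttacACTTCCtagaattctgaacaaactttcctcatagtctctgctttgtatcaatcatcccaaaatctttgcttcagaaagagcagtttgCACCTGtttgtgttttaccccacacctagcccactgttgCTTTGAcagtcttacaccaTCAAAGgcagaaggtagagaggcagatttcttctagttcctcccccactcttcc
Cd3e: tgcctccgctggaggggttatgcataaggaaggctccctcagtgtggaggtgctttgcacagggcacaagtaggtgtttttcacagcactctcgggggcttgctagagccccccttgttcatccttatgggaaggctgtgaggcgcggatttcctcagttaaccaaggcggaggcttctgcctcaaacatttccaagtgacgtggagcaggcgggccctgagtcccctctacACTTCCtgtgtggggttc
Cd3g: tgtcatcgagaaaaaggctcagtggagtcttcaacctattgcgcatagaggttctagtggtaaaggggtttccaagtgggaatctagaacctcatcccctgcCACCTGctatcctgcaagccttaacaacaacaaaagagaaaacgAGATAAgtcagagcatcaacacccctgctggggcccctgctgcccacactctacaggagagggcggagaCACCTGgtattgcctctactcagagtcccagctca
Cd8a: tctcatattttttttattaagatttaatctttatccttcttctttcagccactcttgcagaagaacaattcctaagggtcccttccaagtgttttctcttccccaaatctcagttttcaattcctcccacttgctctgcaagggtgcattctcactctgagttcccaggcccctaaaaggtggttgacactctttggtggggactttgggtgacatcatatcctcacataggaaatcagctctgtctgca
The ETS letters began 199 bases before the start of Cd3d and 18 before that of Cd3e, and they were also present upstream of Cd247 and Cd5. Cd3g held the GATA letters 104 bases and the E-box letters 148 and 35 bases before its start, and Cd3d held the TCF letters at 73 and 54 bases. The Cd8a window held none of the 6 motifs, and none of the 6 windows held the RUNX or TATA letters. Among 32851 promoters of the same length, 19.7% held the ETS letters, 9.99% the GATA, 44.8% the E-box, 13.8% the TCF, 14.0% the RUNX, and 12.4% the TATA letters. A match of this kind is a description of letters, and no binding was measured.

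The deposited values are RSEM's expected counts, estimates of how many fragments came from each gene, and TPM, the same estimates per effective gene length. Totals per tumor were between 33237744 and 48481461 expected counts. Levels within a gene are given as CPM, counts scaled to a fixed library total after TMM normalization, and comparisons were made with edgeR's quasi-likelihood test over the 16287 genes that passed its filter on low counts. All 10 genes passed it, with 19 to 1171 counts per tumor, so they were sparse but detected in all 14 tumors. A gene was called at a Benjamini-Hochberg adjusted p under 0.05, and the common biological coefficient of variation was 0.227. As a check on the tissue, 8 colon epithelium markers were read, and only Krt20 was abundant, with a mean of 235 TPM. None of the other markers exceeded 17.1 TPM in any tumor. Among the lowest of them, Cdh1 averaged 1.55 TPM, Cdx2 0.226 TPM, and Vil1 0.0593 TPM, so most of these markers were low or nearly absent. Tumors with a number in common came from 1 host, and p-values treat each tumor as a replicate.

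Responders carried about 2 to 3 times the T cell receptor complex and coreceptor RNA of non-responders. Of the 10 genes, 9 were called higher in responders, and fold changes of these 9 were between 1.99 (Cd247) and 2.93 (Cd5). Across all tested genes, 5.08% were called higher in this comparison. The median log2 fold change of the 10 genes was 1.25, beside 0.006 over all tested genes, and 8 genes were called with a log2 fold change over 1, a size that 1.5% of all genes reached in this direction. No responder tumor overlapped a non-responder tumor in any of the 10 genes, and 6.8% of all genes were separated in this way with responders higher. In bulk tumors, fewer T cells and less RNA per T cell cannot be told apart. Nor can RNA from any other cells that carry some of these genes be separated from that of T cells.

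**Figure D1:**
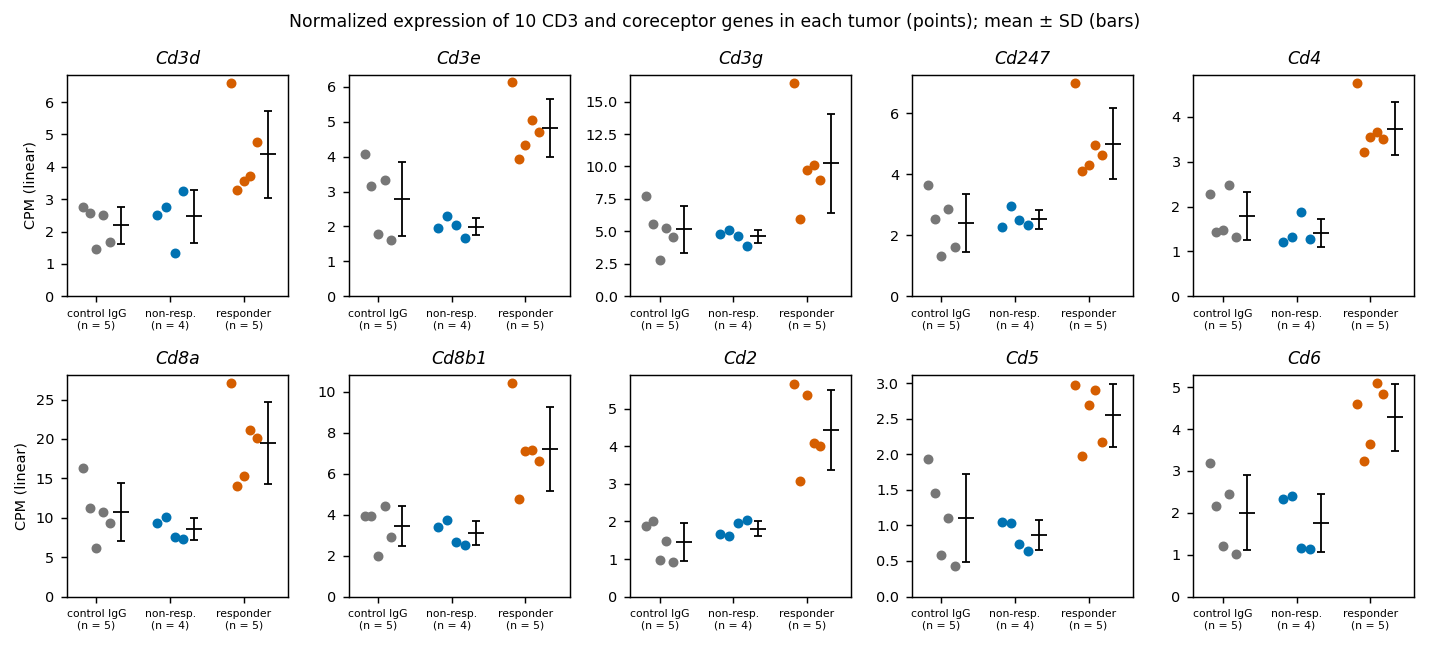
Each panel is 1 gene, with CPM on a linear axis from 0 and 1 point per tumor in control IgG (n = 5), non-responder (n = 4), and responder (n = 5) tumors. Black bars are the mean ± SD, and in all 10 panels the lowest responder is above the highest non-responder, while Cd3e, Cd3g, and Cd8a responders overlap the control IgG tumors.

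Among the CD3 chains, values are given for responders 24L, 26R, 30L, 30R, and 35L, then non-responders 29L, 32R, 33L, and 33R, then control IgG tumors 14L, 14R, 16R, 17R, and 20R. Cd3e, the chain that pairs with both CD3δ and CD3γ, was at 6.13, 3.94, 4.33, 5.05, and 4.71 CPM in responders, 1.97, 2.29, 2.04, and 1.68 in non-responders, and at 4.09, 3.16, 1.79, 3.33, and 1.60 under control IgG. Non-responders were tightly grouped, control IgG tumors were widely spread, and 1 control IgG tumor (14L) was above the lowest responder. Responders exceeded non-responders by a log2 fold change of 1.27 (SE 0.26, edgeR adjusted p = 0.0123).

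Cd3g, which encodes the γ chain, was at 16.4, 5.98, 9.75, 10.1, and 8.94 CPM in responders, 4.78, 5.12, 4.65, and 3.90 in non-responders, and at 7.75, 5.57, 2.76, 5.26, and 4.53 under control IgG. The spread among responders was the widest in proportion of the 10 genes (SD 37.1% of the mean), with 24L far above and 26R just above the non-responders. The edgeR log2 fold change between responders and non-responders came to 1.15 (SE 0.28, edgeR adjusted p = 0.0247).

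Cd247, the source of the zeta chain with most of the complex's tyrosine motifs, was at 6.98, 4.11, 4.31, 4.97, and 4.64 CPM in responders, 2.27, 2.96, 2.49, and 2.34 in non-responders, and at 3.66, 2.54, 1.31, 2.85, and 1.60 under control IgG. Every responder was above every other tumor. The log2 fold change over non-responders was 0.99 (SE 0.27, edgeR adjusted p = 0.0331). Cd247 overlaps Pou2f1 on the opposite strand, which averaged 971.3 counts per tumor, and the study's methods give RSEM's settings as the defaults, which do not use strand, so reads from the shared stretch cannot be told apart by strand. Pou2f1 itself had a difference of 0.03 on the log2 scale (edgeR adjusted p = 0.95).

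Cd3d, which encodes the δ chain, was the 1 gene not called between responders and non-responders. It was at 6.59, 3.29, 3.57, 3.73, and 4.77 CPM in responders, 2.52, 2.76, 1.33, and 3.26 in non-responders, and at 2.75, 2.56, 1.47, 2.51, and 1.69 under control IgG. The groups did not overlap, but responder 26R and non-responder 33R were almost level, and 33R was well above the left-flank tumor of the same mouse. Its log2 fold change was 0.83 (95% interval 0.28 to 1.39, edgeR adjusted p = 0.0724). It was called by DESeq2 (adjusted p = 0.0279), by limma-voom with mouse as a random effect (0.0323, with an estimated correlation within a mouse of -0.282), and with the gene length trend removed (0.0433). It was not called by limma-voom without that effect (adjusted p = 0.0635) or by edgeR with 1 library per mouse (0.0587). Over all genes, limma-voom called 1483 higher with the mouse effect and 832 without it, so the fit with the effect was the more permissive. DESeq2 likewise called more genes higher than edgeR, 1273 against 827.

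Among the coreceptors, Cd4, which marks helper and regulatory T cells and is also found on some dendritic cells, had the lowest adjusted p of the 10 genes. It was at 4.76, 3.21, 3.54, 3.66, and 3.51 CPM in responders, 1.20, 1.32, 1.87, and 1.27 in non-responders, and at 2.27, 1.43, 1.47, 2.48, and 1.33 under control IgG. The 5 responders were above all 9 other tumors, and 24L stood apart from the other responders. Between responders and non-responders its log2 fold change reached 1.40 (SE 0.23, edgeR adjusted p = 0.00628).

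Cd8a, the α chain found in both forms of CD8, was at 27.1, 14.0, 15.3, 21.2, and 20.1 CPM in responders, 9.39, 10.1, 7.51, and 7.25 in non-responders, and at 16.3, 11.3, 6.20, 10.7, and 9.28 under control IgG. Responders 26R and 30L were below control IgG tumor 14L. Cd8b1, the β chain of the heterodimer on cytotoxic T cells, was at 10.4, 4.75, 7.08, 7.17, and 6.61 CPM in responders, 3.39, 3.75, 2.66, and 2.53 in non-responders, and at 3.95, 3.91, 2.0, 4.44, and 2.93 under control IgG. Here the lowest responder, 26R, was narrowly above the highest control IgG tumor, 17R. Between responders and non-responders, the log2 fold changes were 1.19 for Cd8a (SE 0.25, edgeR adjusted p = 0.0137) and 1.22 for Cd8b1 (SE 0.25, adjusted p = 0.0131).

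Among the other surface receptors, Cd2, whose ligand in mice is CD48, was at 5.67, 3.09, 5.36, 4.09, and 4.01 CPM in responders, 1.67, 1.60, 1.95, and 2.03 in non-responders, and at 1.87, 2.01, 0.972, 1.47, and 0.914 under control IgG. All 9 non-responder and control IgG tumors were well below the lowest responder. The log2 fold change over non-responders was 1.30 (SE 0.25, edgeR adjusted p = 0.0114).

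Cd5 was at 2.98, 1.98, 2.69, 2.90, and 2.18 CPM in responders, 1.05, 1.04, 0.736, and 0.634 in non-responders, and at 1.93, 1.45, 0.578, 1.11, and 0.434 under control IgG. It had the largest fold change of the 10 genes and also the fewest counts, 20 to 45 in a non-responder tumor. It came to a log2 fold change of 1.55 (SE 0.37, edgeR adjusted p = 0.0215).

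Cd6, a receptor for CD166, was at 4.60, 3.24, 3.65, 5.09, and 4.84 CPM in responders, 2.32, 2.39, 1.16, and 1.14 in non-responders, and at 3.18, 2.16, 1.21, 2.46, and 1.01 under control IgG. Responder 26R was only just above control IgG tumor 14L, and the left and right tumors of mouse 33 were both low. The log2 fold change over non-responders was 1.28 (SE 0.34, edgeR adjusted p = 0.0308).

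The calls between responders and non-responders did not all withstand the omission of single tumors. The count of called genes was 9 with all tumors and 5 without responder 24L or without non-responder 33R. Over all tested genes, 827 were called higher with all tumors, 341 without 24L, and 506 without 33R. Cd3e, Cd4, Cd8a, Cd8b1, and Cd2 were called in each of the 14 fits with 1 tumor left out. Cd3g lost its call without 24L, 30R, 32R, or 33R (adjusted p 0.0504 to 0.0639), Cd247 without 24L, 29L, 30R, 32R, 33L, or 33R (0.0509 to 0.0888), Cd5 without 24L or 33R (0.0536 and 0.0584), and Cd6 without 24L, 30R, 33L, 33R, or 35L (0.0543 to 0.0815). Cd6 was also not called with 1 library per mouse (edgeR adjusted p = 0.0609).

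Responders were also higher than control IgG tumors in all 10 genes, with log2 fold changes between 0.79 and 1.62. All 10 were called, where 7.88% of all tested genes were called higher. The groups did not overlap in 7 of the 10 genes, a separation seen in 8.34% of all genes in this direction. Cd3e, Cd3g, and Cd8a overlapped, each through control IgG tumor 14L. The median of the 10 was 1.06, beside -0.011 over all genes. This comparison and the previous one share the 5 responder tumors, so they are not independent of each other.

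Cd2 was the gene that differed most from control IgG tumors, with a 3.07-fold higher level (log2 fold change 1.62, SE 0.24, edgeR adjusted p = 0.00115). The coreceptors Cd8b1 and Cd4 were both at 1.06 on the log2 scale (edgeR adjusted p = 0.00856 and 0.00515), and Cd8a was at 0.86 (0.0229). The CD3 chains were at 0.99 for Cd3g (edgeR adjusted p = 0.024), 1.07 for Cd247 (0.0123), 1.0 for Cd3d (0.0229), and 0.79 for Cd3e (0.0382). Cd5 and Cd6 were at 1.21 and 1.10 (edgeR adjusted p = 0.0281 and 0.0315). Cd3e therefore differed least and Cd2 most from control IgG tumors.

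Without responder 24L, or without control IgG tumor 20R, 4 of the 10 genes were called against control IgG tumors, and without 16R or without 30R the count was 6. Over all tested genes, 1284 were called higher with all tumors, 748 without 24L, 751 without 20R, 982 without 16R, and 890 without 30R. Cd247, Cd4, Cd8b1, and Cd2 were called in every fit with 1 tumor left out, whereas calls were lost for Cd3d (without 16R, 20R, or 24L), Cd3e (16R, 20R, 24L, 30L, 30R, or 35L), Cd3g (20R or 24L), Cd8a (20R, 24L, or 30R), Cd5 (16R, 17R, 20R, 24L, 30L, or 30R), and Cd6 (16R, 20R, 24L, 30R, or 35L). Their adjusted p in these fits was between 0.0515 and 0.108.

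Non-responders and control IgG tumors overlapped in all 10 genes, and edgeR called none of them. With control IgG tumors as the reference, log2 fold changes of non-responders ran from -0.48 for Cd3e (95% interval -0.98 to 0.02, edgeR adjusted p = 0.931) to 0.32 for Cd2 (-0.17 to 0.81, adjusted p = 0.931). Of the others, Cd4 was at -0.34 (-0.79 to 0.10), Cd8a at -0.33 (-0.80 to 0.15), and Cd5 at -0.34 (-1.05 to 0.38). The percentage of all genes called in this comparison was 0.0%, and 4.65% had an unadjusted p under 0.05, against 0 of the 10. DESeq2 called 13 genes higher and 5 lower over the whole table and none of the 10, and limma-voom called none of the 10. These intervals reached a log2 value of -1.05, so equality of the groups was not shown.

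**Figure D2:**
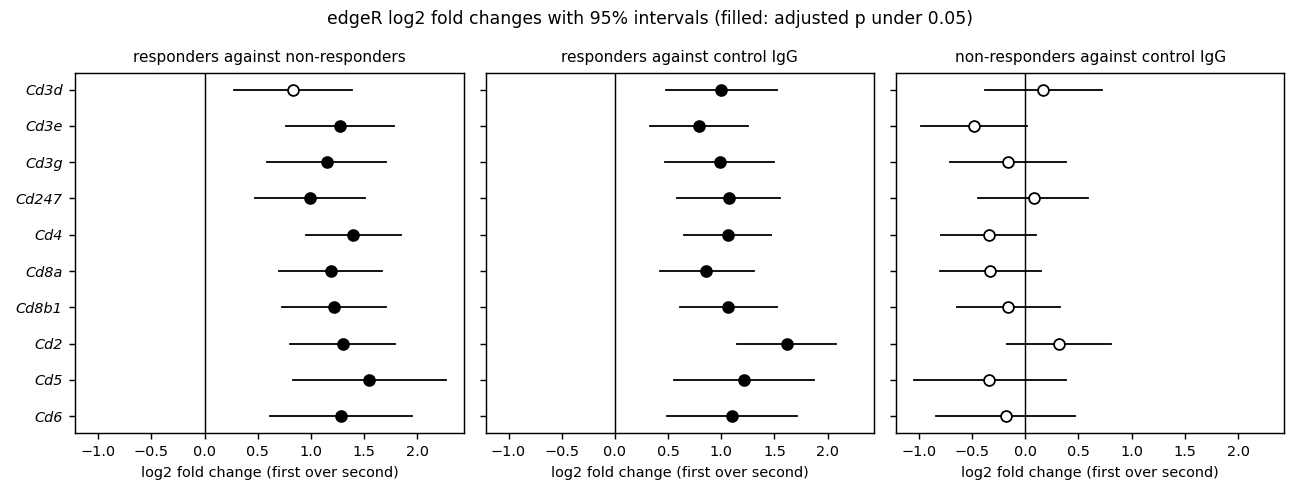
Each row is a gene and each panel a comparison, with the edgeR log2 fold change (circle) and its 95% interval (line). Filled circles are called at an adjusted p under 0.05, which holds for 9, 10, and 0 of the 10 genes from left to right.

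Levels of different genes were compared as TPM. Averaged over the 14 tumors, Cd3g was highest (11.2 TPM, SD 6.58) and above the other genes in 14 of 14 tumors, followed by Cd8a (6.24), Cd8b1 (4.66), Cd2 (3.63), Cd3e (3.63), Cd247 (2.93), Cd3d (2.85), Cd4 (1.48), Cd6 (1.29), and Cd5 (1.05). Cd8a exceeded Cd8b1 in 14 of 14 tumors, and Cd8b1 exceeded Cd2 in 11. Neighbours that did not separate were Cd2 and Cd3e (Cd2 higher in 7 of 14), Cd247 and Cd3d (8 of 14), and Cd4 and Cd6 (7 of 14). The first 3 places were held by Cd3g, Cd8a, and Cd8b1 in each of the 3 groups. Cd2 was the fourth gene in responders (6.48 TPM, SD 1.63), the fifth in non-responders (2.25, SD 0.407), and the sixth in control IgG tumors (1.90, SD 0.653).

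TPM of a gene with several transcripts depends on the length that RSEM assigns to it in each tumor, and for Cd4 this length varied widely. The effective length of Cd4, which has 5 transcripts in the files, was 840 bases in control IgG tumor 20R and 2838 bases in responder 24L, a 3.38-fold range. Control IgG tumors 14R and 20R had nearly the same Cd4 level in CPM (1.43 and 1.33), while their TPM were 0.54 and 1.78. The lengths of Cd3e (1.75-fold, shortest in 16R with 701 bases) and Cd3d (1.69-fold, shortest in 29L with 800 bases) each owed their range mainly to 1 tumor. Cd8b1 and Cd5, with 1 transcript each, varied by 1.02-fold and 1.01-fold.

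**Figure D3:**
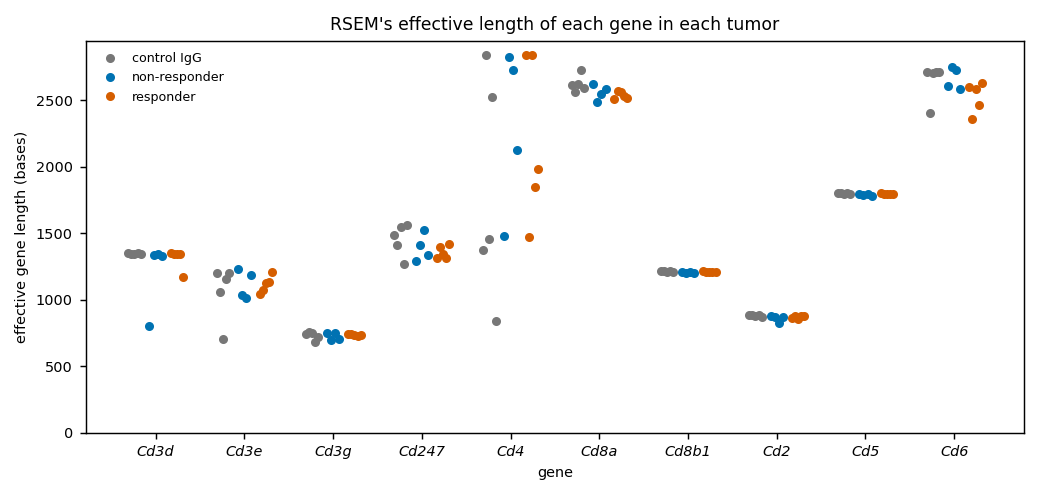
The effective length in bases that RSEM used for each gene is plotted for each of the 14 tumors, coloured by group. Cd4 spans 840 to 2838 bases and overlaps between groups, Cd3d and Cd3e each have 1 tumor far below the rest, and the other 7 genes each lie within a 1.23-fold range.

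The composition of the set was compared between groups as log2 TPM ratios within a tumor, which do not depend on library normalization. No ratio separated responders from non-responders (8 ratios, two-sided exact permutation tests, lowest adjusted p = 0.508). The ratio of Cd8a to Cd4 lay between 2.50 and 6.43 in responders, between 4.28 and 8.74 in non-responders, and between 2.27 and 8.76 under control IgG, so the groups covered much the same range. The difference of responders over non-responders was -0.30 on the log2 scale (two-sided exact permutation p = 0.421). In expected counts, where the length of Cd4 plays no part, the same ratio was between 4.32 and 5.80 in responders, 4.02 and 7.85 in non-responders, and 4.21 and 7.93 under control IgG.

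The ratio of Cd8b1 to Cd8a, the heterodimer's chains, was 0.764 ± 0.0165 (SD, n = 4) in non-responders, 0.777 ± 0.120 (SD, n = 5) in responders, and 0.711 ± 0.147 (SD, n = 5) under control IgG. Responders and non-responders differed by 0.01 on the log2 scale (two-sided exact permutation p = 0.968), and non-responders were the least spread. The ratio of Cd3d to Cd3e was the most variable in non-responders, from 0.492 in 33L to 1.96 in 29L, the tumor with the short Cd3d length. Its difference between responders and non-responders was -0.56 (two-sided exact permutation p = 0.254, adjusted p = 0.508).

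Against control IgG tumors, 2 ratios passed in responders. Cd2 to Cd3e was between 0.958 and 1.63 in responders and between 0.434 and 0.787 in control IgG tumors, a log2 difference of 0.90 (two-sided exact permutation p = 0.00794, the smallest this design allows, adjusted p = 0.0317). Cd247 to Cd3e was between 0.804 and 0.899 in responders and between 0.337 and 0.780 in control IgG tumors, a log2 difference of 0.46 (two-sided exact permutation p = 0.00794, adjusted p = 0.0317). Cd2 to Cd3e was also higher in non-responders (0.828 to 1.66) than in control IgG tumors without overlap, by 0.92 (two-sided exact permutation p = 0.00794, again the smallest the design allows, adjusted p = 0.0635). Cd247 to Cd3e in non-responders (0.808 to 1.24) was likewise above control IgG tumors without overlap. Its log2 difference there was 0.72 (two-sided exact permutation p = 0.0238, adjusted p = 0.0952).

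Control IgG tumor 16R, which had the short Cd3e length, had the lowest value of all 6 ratios to Cd3e within its group. With expected counts in place of TPM, responders over control IgG tumors differed by 0.79 in Cd2 to Cd3e (two-sided exact permutation, adjusted p = 0.0423) and by 0.27 in Cd247 to Cd3e (adjusted p = 0.0635). With any 1 responder left out, the difference was 0.78 to 0.97 for Cd2 to Cd3e and 0.43 to 0.47 for Cd247 to Cd3e. The former then had the smallest p that 4 against 5 tumors allow (two-sided exact permutation p = 0.00794), which over 8 ratios is 0.0635 when no other ratio reaches it, and the latter had an adjusted p of 0.111 to 0.159. Without 16R, Cd247 to Cd3e had a difference of 0.24 (two-sided exact permutation, adjusted p = 0.0317).

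**Figure D4:**
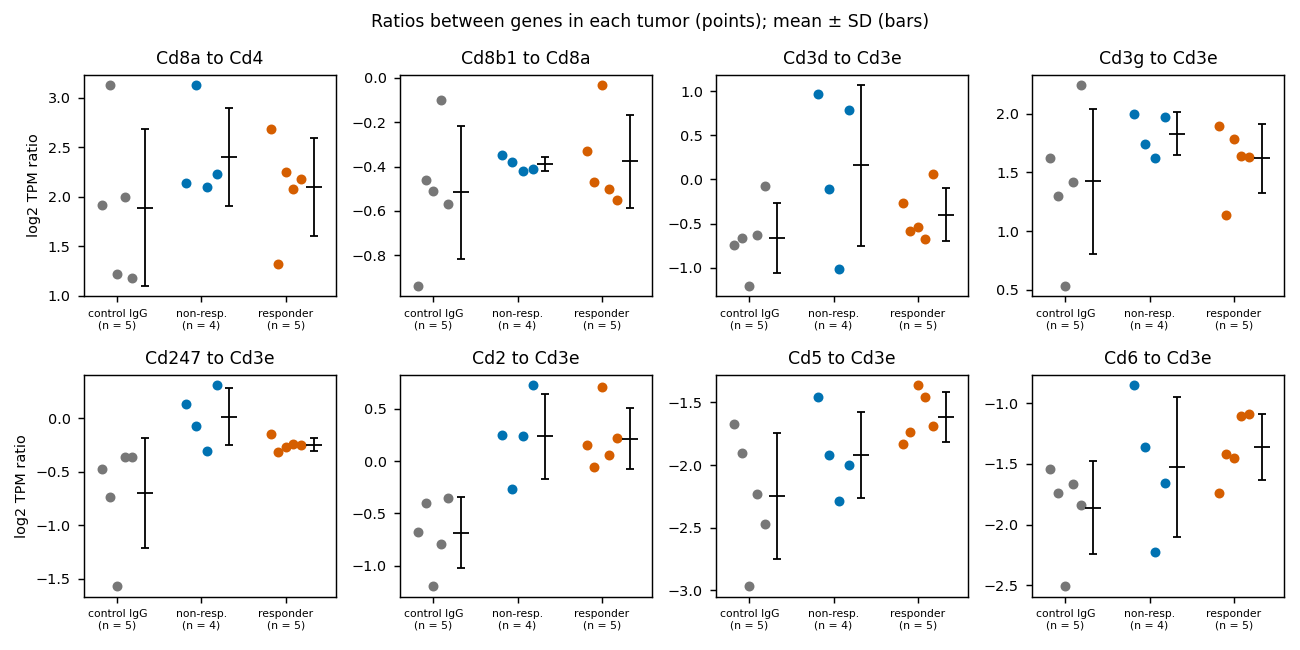
Each panel shows the log2 TPM ratio of a pair of genes, 1 point per tumor, with the mean ± SD as black bars. Only the panels Cd2 to Cd3e and Cd247 to Cd3e have all responders above all control IgG tumors, and no panel separates responders from non-responders.

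The tumor at either end varied between genes more in some groups than in others. Within responders, 24L was the highest tumor for 9 of the 10 genes and 26R the lowest for all 10. Within control IgG tumors, 14L was the highest for 7, and 16R and 20R were the lowest for 5 each. Within non-responders, 32R was the highest for 6 but the lowest for Cd2, and 33R was the lowest for 6 but the highest for Cd3d and Cd2. The other non-responders also held both ends, with 29L highest for Cd5 and lowest for Cd247 and Cd4, and 33L highest for Cd4 and lowest for Cd3d. The 3 mice with tumors on both flanks differed in size and direction. In mouse 30 (responder) the right tumor was higher in 9 of 10 genes by a median log2 difference of 0.09, and in mouse 14 (control IgG) it was higher in 1 of 10, with a median of -0.44. In mouse 33 (non-responder) the median was -0.08, and Cd3d stood out with 1.33 CPM on the left and 3.26 CPM on the right.

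The rest of the receptor's signalling pathway was examined through lists of genes. As background for every list, 5.08% of the 16287 tested genes were called higher in responders than in non-responders, and 785 genes lower. Against control IgG tumors, 7.88% were called higher and 863 genes lower. Of 27 genes that carry the signal inside the cell, 26 were tested, and 15 were called higher and none lower in responders than in non-responders. Their median log2 fold change was 0.67, beside 0.006 over all genes. At an adjusted p under 0.01, or with a log2 fold change over 1 required, 3 were called. Lck and Fyn, the kinases that phosphorylate the CD3 chains, had log2 fold changes of 0.69 and 0.42 (edgeR adjusted p = 0.0359 and 0.0123). Zap70, the kinase that docks on them, was at 0.84 (edgeR adjusted p = 0.0175). The adaptors Lat and Lcp2 were at 1.31 and 0.41 (edgeR adjusted p = 0.00759 and 0.0471). The costimulatory receptor Cd28 was at 0.83 and was not called (edgeR adjusted p = 0.0541).

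Expression of several of these genes extends beyond T cells. Ptprc, the CD45 phosphatase of all leukocytes, was at 152 CPM in responders and 88.2 in non-responders (log2 fold change 0.78, edgeR adjusted p = 0.00674). In ratios to Ptprc, chosen after the data were seen, Cd3e was 0.52 higher and Cd4 0.72 higher on the log2 scale in responders than in non-responders (two-sided exact permutation p = 0.0238 and 0.0397, adjusted over 4 ratios 0.0794 for both). Cd8a differed by 0.43 (two-sided exact permutation p = 0.0952) and Cd3d by -0.04 (0.921). Against control IgG tumors the same ratios in responders differed by 0.01 for Cd3e and -0.05 for Cd4 (two-sided exact permutation p = 0.992 and 0.905). Those of Cd3d and Cd8a differed by 0.27 and 0.17 (two-sided exact permutation p = 0.317 and 0.484). The Cd4 ratio depends on TPM, for which the length of Cd4 varied widely. In counts, edgeR's log2 fold changes of responders over control IgG tumors were 1.06 for Cd4 and 0.73 for Ptprc.

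Against control IgG tumors, 15 of the 26 signalling genes were called higher in responders and none lower (median 0.66), and none was called between non-responders and control IgG tumors by edgeR, DESeq2, or limma-voom (0 had an unadjusted p under 0.05). Of 15 tested inhibitors of the signal, 6 were called higher in responders than in non-responders, with a median of 0.44. Ubash3a, a phosphatase-like suppressor, and Lax1, an inhibitory adaptor, had the largest log2 fold changes, 1.25 and 1.12 (edgeR adjusted p = 0.0487 and 0.0235). Among 7 constant genes of the receptor's own chains, edgeR called only Trac, at 1.14 (edgeR adjusted p = 0.0269). Tcrg-C2 was at 1.31 without a call (edgeR adjusted p = 0.0564), and the median of the 7 was 0.76. Constant genes of the same chain resemble each other, and how fragments were divided between such genes is uncertain.

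Of 12 transcription factors of the T lineage, 5 were called higher in responders than in non-responders, led by Tox (1.29, edgeR adjusted p = 0.0141) and Ikzf3 (1.22, 0.0102). Against control IgG tumors 5 were higher and 2 were lower, Lef1 (-0.62, edgeR adjusted p = 0.033) and Runx1 (-0.61, 0.0179), both named after their values were seen. Among 8 ligands of the receptors, the 3 class II genes were called. H2-Eb1 was at 259 CPM in responders and 66.6 in non-responders (log2 fold change 1.96, edgeR adjusted p = 0.0119), and H2-Aa at 228 and 66.2 (1.78, 0.0139). Ligand genes of class I, CD2, and CD6 had log2 fold changes of 0.10 to 0.38 and were not called.

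**Figure D5:**
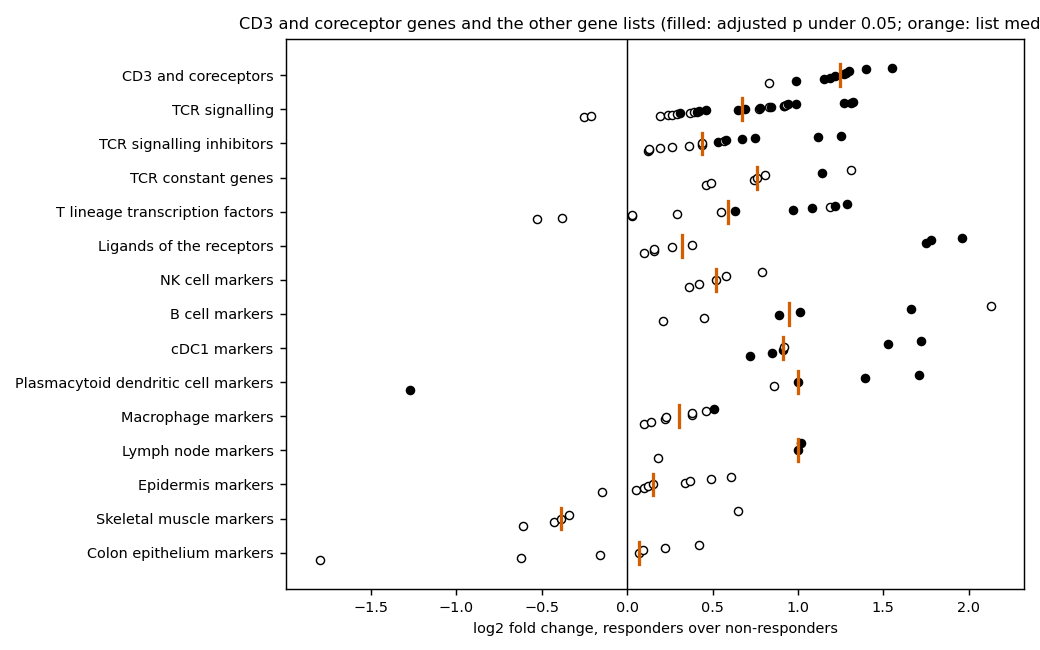
Each row is a gene list and each circle a tested gene, placed by its edgeR log2 fold change between responders and non-responders. Filled circles are called at an adjusted p under 0.05, orange lines are list medians, and the 10 CD3 and coreceptor genes have a median of 1.25 while the NK cell, epidermis, muscle, and colon epithelium lists hold no gene called by edgeR.

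Markers of other cells moved with these differences to varying degrees, and their part in the results was not tested. Of 5 tested NK cell markers, none was called between responders and non-responders by edgeR (2 had an unadjusted p under 0.05, and DESeq2 called 1 and limma-voom 0), led by Klrb1c at 0.79 (adjusted p = 0.0997) and Ncr1 at 0.58 (0.0896), but all 5 were called higher in responders than in control IgG tumors. Their summed level was 14.2 to 25.7 TPM in responders, 8.94 to 12.0 in non-responders, and 6.97 to 8.97 under control IgG. Klra4 and Klra8 were listed at 0 in all 14 tumors. Whether the Balb/c hosts carry these genes was not examined, so nothing on NK cells is read from those values. Of 6 tested B cell markers, 3 were called higher in responders than in non-responders, with Pax5 at 1.66 (edgeR adjusted p = 0.0106) and Ms4a1 at 2.13 without a call (0.0802). Their summed level was 7.97 to 10.3 TPM in responders, 4.18 to 6.72 in non-responders, and 3.67 to 8.05 under control IgG. The defining B cell genes Ms4a1 and Blk were each at 0 in 2 tumors.

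Markers of cross-presenting dendritic cells (cDC1) were called in 5 of 6, led by Xcr1 (1.72, edgeR adjusted p = 0.00475) and Clec9a (1.53, 0.00475), with a summed 28.0 to 42.2 TPM in responders, 10.5 to 20.7 in non-responders, and 13.7 to 24.1 under control IgG. Of 5 plasmacytoid dendritic cell markers, 3 were higher, among them Pacsin1 (1.71, edgeR adjusted p = 0.0153) and Klk1 (1.39, 0.0174), and Cox6a2 was lower (-1.27, 0.0251), a gene named after its value was seen. The summed level of that list overlapped between groups, at 13.7 to 24.2, 16.5 to 26.5, and 15.4 to 29.1 TPM in responders, non-responders, and control IgG tumors, and Cox6a2 alone averaged 8.68, 17.3, and 14.7 TPM of it. The other 4 genes summed to 6.55 to 12.2 TPM in responders, 2.83 to 4.10 in non-responders, and 2.57 to 7.53 under control IgG. Of 8 macrophage markers, Adgre1 was called (0.51, edgeR adjusted p = 0.0132) and Mrc1 was at 0.46 (0.209). Macrophage markers summed to 1530 to 2000 TPM in responders, 1130 to 1370 in non-responders, and 1250 to 1440 under control IgG.

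Among the lymph node markers, Ccr7, also carried by circulating leukocytes, was called (log2 fold change 1.0, edgeR adjusted p = 0.0158), and 4 others of the list were at 0 in some tumors (Glycam1 in 10 of 14, Madcam1 in 8, Fcer2a in 7, and Cr2 in 4). The list summed to 189 to 236 TPM in responders, 57.4 to 146 in non-responders, and 64.2 to 80.9 under control IgG. Skin and muscle markers varied among tumors of every group, and edgeR, DESeq2, and limma-voom called none of them between responders and non-responders (0 had an unadjusted p under 0.05). Epidermis markers summed to 13.2 to 986 TPM in responders, 103 to 274 in non-responders, and 7.10 to 712 under control IgG, and Krt1 and Krt10 had log2 fold changes of 0.61 and 0.49 (edgeR adjusted p = 0.782 and 0.764). Skeletal muscle markers summed to 22 to 415, 82.2 to 583, and 115 to 1080 TPM in the same order, with Myh4 at 0.65 and Mylpf at -0.61 (edgeR adjusted p = 0.631 and 0.678). Colon epithelium markers summed to 245 to 340, 124 to 358, and 167 to 263 TPM, and Cdx2 and Krt8 were at -1.80 and -0.62 in responders over non-responders (edgeR adjusted p = 0.0634 and 0.565, with 1 gene of the list called by DESeq2 and by limma-voom), with Cdx2 called lower than in control IgG tumors (-1.97, 0.0303).

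The genes whose pattern over the 14 tumors was most like the mean of the 10 were C1ra, H2-DMa, Lag3, C1s1, and Lat. Likeness was the root mean square difference of centred log2 CPM, which was 0.168, 0.175, 0.185, 0.190, and 0.196 for these 5 and had a median of 0.69 over 16277 genes. C1ra, a complement protease, was at 223 CPM in responders, 108 in non-responders, and 105 under control IgG, and C1s1, its partner, at 270, 122, and 121. H2-DMa, which loads peptide on class II, was at 58.0, 29.3, and 31.2 CPM, and Lag3, an inhibitory receptor that binds class II, at 7.90, 3.51, and 3.59. Of the 10 genes themselves, Cd247 was closest to their mean (0.150) and Cd2 farthest (0.321).

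Neighbours of the genes on the chromosome were also measured. Lag3, next to Cd4 at 16140 bases, was called higher in responders than in non-responders (1.17, edgeR adjusted p = 0.0211). Gpr162, 709 bases on the other side of Cd4, was at 0.46 (edgeR adjusted p = 0.144). Ube4a beside Cd3g was at 0.23 (edgeR adjusted p = 0.113), Rmnd5a beside Cd8a at 0.14 (0.475), Vps37c beside Cd5 at 0.08 (0.443), and Slc15a3 beside Cd6 at 0.66 (0.0859), and none of these was called. Smyd1, a gene of muscle that lies 555 bases from Cd8b1, was at -0.28 (edgeR adjusted p = 0.846).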

How the data were processed

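Bulk RNA-seq of 14 tumors was analysed. Per the labels, mRNA was enriched with oligo(dT), and groups and replicates come from the labels. The authors used STAR for alignment (mm10) and RSEM for gene quantities. The study's methods give default settings for both tools in describing its cell lines and refer back to that account for tumor sequencing, and they name no strand option. The expected counts deposited by the authors are not normalized. The TPM values deposited by the authors are scaled to an equal total per tumor and by effective length. FPKM was not used. Symbols and positions came from the GRCm38 annotation (53706 of 53801 genes matched).

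The 10 genes and all lists were chosen with earlier results of these data known, so patterns already seen are no independent support. After rounding, expected counts went into edgeR 4.0.16 under R 4.3.3 (TMM, filterByExpr, quasi-likelihood test, Benjamini-Hochberg over 16287 genes), with all 14 tumors and 3 groups in a single fit and no covariates. A prior count of 2 was used for log2 CPM. A fold change's standard error is its size over the root of F, and the 95% interval is 1.96 standard errors either way. Ratios of TPM took no pseudocount and were compared by two-sided exact permutation over tumors, adjusted over 8 ratios. The genes named are the 10, 8 genes of the signalling list, of each other list the pair with the largest absolute log2 fold change between responders and non-responders and defining markers at 0, the 5 most alike genes, and neighbours. A few genes that this rule names are counted in their lists but not reported here by name. On simulated counts with 200 genes changed 2-fold between responders and non-responders, edgeR recovered 59.5% with 4.03% of its calls false, over 16287 genes. Alternatives were DESeq2 1.42.0, limma-voom (limma 3.58.1) alone or with a random effect for mouse, other normalizations, filters and thresholds, a length trend removed (loess span 0.5), limma on log2(TPM + 1), 1 library per mouse, only the groups compared, and each tumor left out in turn. Ratios to Ptprc and count ratios per tumor were added after the data were seen. No batch is named in the labels. Tissue stainings, barcodes, and repertoires of the study were not analysed here.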

Additional observations from a re-analysis of the deposited data

Results flagged for a closer look

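Of 54 sets of 4 or 5 tumors (each gene's CPM and each ratio in each group), 2 held a tumor far from the others of its group, and chance alone marks about 5% of sets. Cd4 in responder 24L was at 4.76 CPM, beside 3.21 to 3.66 CPM in the other 4 responders, and 24L was the highest responder for 9 of the 10 genes. The log2 TPM ratio of Cd8a to Cd4 in non-responder 32R was 3.13, beside 2.10 to 2.23 in the other 3 non-responders. In expected counts, the ratio was 7.67 in 32R and 7.85 in 29L, so 32R did not stand apart there, and the effective length of Cd4 was 2827 bases in 32R and 1474 bases in 29L.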

How the results depend on the processing

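Over 11 other tools, normalizations, filters, and fits, 8 to 10 of the 10 genes were called between responders and non-responders, with the directions of all 10 kept, and 9 or 10 were called against control IgG tumors. The number of all genes called higher varied far more between these settings. Between responders and non-responders it ran from 487 (only the groups compared) to 1969 (limma on log2(TPM + 1)). Against control IgG tumors it ran from 1079 (no filter on low counts) to 1716 (only the groups compared). Exceptions between responders and non-responders are Cd3d and Cd6, given above. Against control IgG tumors, Cd3e was not called without a filter on low counts (0.80, edgeR adjusted p = 0.0553) and Cd4 not by limma on log2(TPM + 1) (0.50, adjusted p = 0.0693). With limma on log2(TPM + 1), the median log2 fold change of all genes was 0.085 against control IgG tumors and 0.169 between responders and non-responders. At an adjusted p under 0.01, 1 gene was called between responders and non-responders and 3 against control IgG tumors, and with a log2 fold change over 1 required, 8 and 6 were. With the fold required, 1.5% of all genes were called higher between responders and non-responders. The other shares of all genes at these thresholds are not given here. For the signalling list, 3 genes were called between responders and non-responders under either of these thresholds, and against control IgG tumors 9 at 0.01 and 3 with the fold required. With 1 tumor left out, called genes numbered 5 to 9 between responders and non-responders and 4 to 10 against control IgG tumors, and of the signalling list 7 to 17 and 9 to 20. Over all genes, these fits called 341 to 923 higher between responders and non-responders, and 748 to 1847 against control IgG tumors.

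Ratios that missed the threshold changed sign in places. Between responders and non-responders, log2(TPM + 1) gave 0.28 for Cd8a to Cd4, -0.04 for Cd8b1 to Cd8a, and, to Cd3e, 0.05 for Cd3g, 0.04 for Cd2, -0.27 for Cd5, and -0.26 for Cd6. Means per mouse gave -0.02 for Cd8b1 to Cd8a and 0.02 for Cd2 to Cd3e. With 1 tumor left out, Cd8b1 to Cd8a ranged from -0.07 to 0.06, Cd2 to Cd3e from -0.19 to 0.14, and Cd6 to Cd3e from -0.07 to 0.39. For responders over control IgG tumors, Cd8a to Cd4 was -0.20 in expected counts, and Cd3g to Cd3e ranged from -0.03 to 0.40. The 2 ratios called there were not called as log2(TPM + 1), at 0.66 for Cd2, again with the smallest exact permutation p the design allows (adjusted p = 0.0635), and 0.27 for Cd247, for which the cause was not tested. Means per mouse gave 0.89 and 0.48, and there 4 against 4 mice allow no adjusted p under 0.114 for 2 ratios. Log2 fold changes of non-responders over control IgG tumors ranged with 1 tumor left out from -0.01 to 0.36 for Cd3d, -0.32 to 0.03 for Cd3g, -0.08 to 0.28 for Cd247, and -0.37 to 0.04 for Cd6, which was 0.08 with 1 library per mouse. Depth limits Cd5 most, with as few as 19 counts in a tumor. No paired analysis was possible because the groups share no replicate numbers, each mouse having tumors in 1 group.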
